A study of Arabidopsis thaliana with 4 samples.

Results

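A set of 249 bright and even probe sets was examined, chosen from the 22746 probe sets of the array that are not controls. A probe set is a group of short probes for a transcript, and its signal is a brightness on a linear scale. Signals of 1 probe set can be compared between arrays. Between probe sets they are ranked, summed or set against a limit below as brightness only, not as amounts of transcript. A probe set was taken when its mean signal over the 4 arrays was at least 3000 and its highest array was at most 1.3 times its lowest. Genes of the plastid and mitochondrial genomes were left out. The ratio of the highest to the lowest array is called the evenness ratio below. Because all 4 arrays entered this choice, the members' differences between arrays are descriptions and carry no test.

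RNA of whole Arabidopsis thaliana plants was measured on 2 arrays of the ppi2 mutant, grown for 20 days, and 2 arrays of wild-type plants, grown for 10 days, all on agar plates without further treatment. The ppi2 mutant lacks TOC159, a receptor through which precursor proteins enter the chloroplast, and its plants are pale and slow-growing. Genotype and age changed together and cannot be told apart, and the titles mark the replicates as biological without saying what was separate. The bulk RNA of a whole plant cannot tell fewer cells of a type from less RNA per cell.

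The arrays did not pair by label. Over the 13648 probe sets that passed a filter on low signal, the median absolute log2 difference was 0.156 between ppi2 replicate 1 and wild type replicate 2. It was 0.26 between ppi2 replicate 2 and wild type replicate 1, and 0.439 to 0.486 for the other 4 pairs, those of the same label included. Median signals of all probe sets were 193.4 and 201 in ppi2, against 212.9 and 198.5 in wild type. No probe set is assigned to TOC159 in the annotation used, so the labels could not be checked by the mutated gene. Whether the labels of 1 replicate number were exchanged is not resolved here. An exchange would change what every labelled difference, SE and overlap below means, so ppi2 and wild type stand throughout for the arrays labelled ppi2 and wild type. Leaf markers followed the crossed order, with 2 of 7 fixed genes measured, LHCB4.2 and PSAN. Their summed signals were 4578 and 46365 on the ppi2 arrays against 50221 and 3689 on the wild type arrays. Both are genes of photosynthesis, and whether their signals reflect the amount of leaf was not tested. Root markers summed over 3 of 6 genes to 6651 and 13408 on the ppi2 arrays against 14706 and 7554 on the wild type arrays, mostly from PYK10, and no fixed seed marker was measured.

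Transcripts that are abundant in every plant cell mostly serve protein synthesis, the cytoskeleton, central carbon metabolism and protein turnover, and several of them are used as references in RT-PCR. Ribosomes are built in the cytosol from a large and a small subunit, each with many proteins that are encoded by small families of nuclear genes, and plastids hold ribosomes of their own. In plants, GAPDH, tubulin, actin, ubiquitin and elongation factor genes are the customary references, although each family holds members of different tissue range.

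The 249 members were 26.1% of the 953 probe sets that reached the signal limit and were not assigned to an organelle genome. Of the 33 bright organelle probe sets, 0 met the ratio limit. Of all summed signal, members held 10.9% and 9.88% on ppi2 replicates 1 and 2, against 9.74% and 10.6% on wild type replicates 1 and 2. Annotation gave 1 gene for 95 members, several genes for 16 and none for 138. A single gene was thus known for 38.2% of members, against 59.4% of all 22746 probe sets. This low share was not particular to the members, as 390 of all 986 bright probe sets, organelle ones included, had a single gene. Of the 138 unnamed members, 0 had a probe set number within the 2 blocks of numbers that hold the 92 single-gene organelle probe sets. Functions below are background knowledge of the Arabidopsis loci, since the annotation gave a name beyond the locus identifier for only 19 of the 95. Roles were assigned to 61 of the 95, and the other 34 were not grouped.

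**Figure D1:**
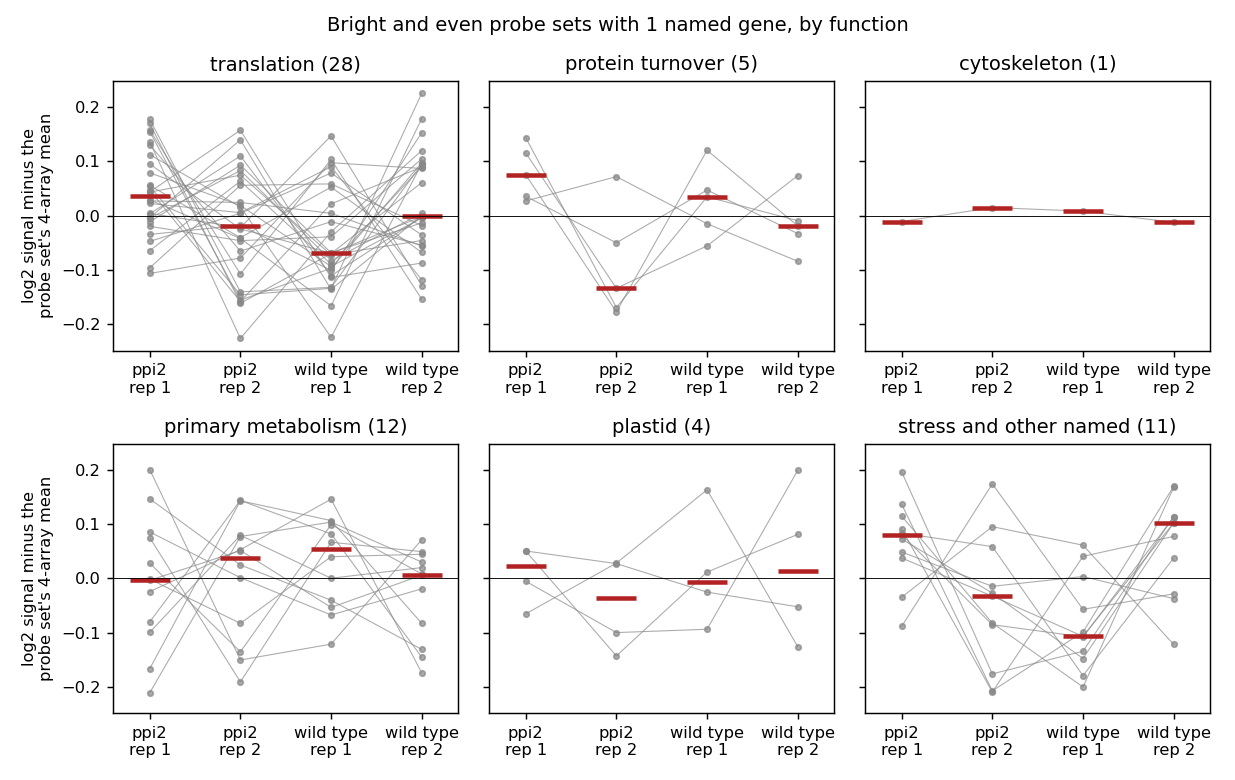
Log2 signal of each named member minus its own mean over the 4 arrays, by function group (number of probe sets in brackets), with arrays along the x axis; each grey line is a probe set and each red bar a group median. All points lie within the band that the ratio limit allows, and the median of the 28 translation probe sets is lowest on wild type replicate 1.

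Translation was the largest function group, with 28 probe sets, 17 for proteins of the large ribosomal subunit, 8 for the small subunit and 3 for other factors. AT3G09200, the acidic stalk protein P0 on which elongation factors dock, had signals of 15412 and 12251 on the ppi2 arrays, against 13054 and 14292 on the wild type arrays. The groups overlapped, and ppi2 replicate 2 was the lowest of the 4. AT3G60245, a large-subunit protein, read 11729 and 11869 on the ppi2 arrays against 11203 and 13355 on the wild type arrays. AT2G19730, of the same subunit, read 11657 and 9071 against 10394 and 11529. In both genes the labelled groups overlapped.

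The elongation factor subunit AT5G19510, part of the exchange factor that reloads EF1A with GTP, read 12554 and 11555 on the ppi2 arrays against 11202 and 11738 on the wild type arrays. AT3G02080, a small-subunit protein, read 10038 and 9390 on the ppi2 arrays against 7950 and 9922 on the wild type arrays, with wild type replicate 1 alone at the bottom. AT3G07110, a large-subunit protein, read 8404 and 9034 on the ppi2 arrays against 8078 and 8393 on the wild type arrays. Here both ppi2 values were the higher ones, by a log2 difference of 0.08 (limma SE 0.258). AT5G54940, an initiation factor of the SUI family that takes part in start-codon choice, read 8290 and 8924 on the ppi2 arrays against 7660 and 8255 on the wild type arrays.

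The most even gene of this group was AT5G27850, a large-subunit protein, with 6063 and 6051 on the ppi2 arrays against 5968 and 5724 on the wild type arrays, an evenness ratio of 1.06. The least even was AT4G29410, of the same subunit, with 3854 and 3355 against 3383 and 4339, a ratio of 1.29. PGY1 (AT2G27530), a large-subunit protein whose loss changes leaf shape, read 5858 and 4725 on the ppi2 arrays against 4920 and 5630 on the wild type arrays. It repeated the crossed order of the arrays at a small size, with ppi2 replicate 1 and wild type replicate 2 as the higher pair.

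Over the 28 probe sets the median labelled log2 difference, ppi2 minus wild type, was 0.02, with a range from -0.18 to 0.20. The 8 small-subunit genes had a median of 0.08, with 7 above 0, and the 17 large-subunit genes a median of 0.00, with 7 above 0. AT5G28060, of the small subunit, stood at the upper end with 3124 and 3380 on the ppi2 arrays against 2801 and 2853 on the wild type arrays. AT3G09630, of the large subunit, stood at the lower end with 5740 and 5854 on the ppi2 arrays against 6611 and 6563 on the wild type arrays. These 2 genes and PGY1 were picked after their values were seen. Their groups did not overlap, except in PGY1, but the median limma SE of a member's labelled difference was 0.272. Limma takes each such SE in part from the spread of all tested probe sets. It is therefore not the spread of the member's own arrays alone.

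Members were more frequent among bright cytosolic ribosomal protein genes than among other bright genes on the signals as deposited. Of 64 bright probe sets with 1 gene for a cytosolic ribosomal protein, 25 were members (39.1%), against 69 of 289 other bright probe sets with 1 nuclear gene (23.9%). After quantile normalization these shares were 25% (16 probe sets) and 23.5%, and with each array centred on its median 31.2% and 24.9%, so the gap depended on the scaling. The list was drawn up from loci known to encode ribosomal proteins, with the values known, and was not tested.

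Most of the ribosomal genes outside the limit were lowest on 1 array. Of the 39 bright cytosolic ribosomal genes that were not even, 30 had their lowest signal on wild type replicate 1, and their median evenness ratio was 1.496. AT1G01100, an acidic stalk protein, read 11486 and 9018 on the ppi2 arrays against 5429 and 10035 on the wild type arrays. AT5G27700, a small-subunit protein and the least even of the 64, read 11600 and 8324 on the ppi2 arrays against 5145 and 15020 on the wild type arrays, a ratio of 2.92. Without wild type replicate 1, 49 of the 64 (76.6%) met the ratio limit, against 107 of the 289 other genes (37%). Leaving out any other array gave 28 to 31 of the 64. Leaving out an array can only raise this count or keep it. The larger rise without wild type replicate 1 follows in part from the lowest signals counted above.

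Most bright Arabidopsis control probe sets of the array were lowest on the same array. Of the 12 with a mean signal of at least 3000, for actin, GAPDH and ubiquitin, 9 were lowest on wild type replicate 1 and 2 were highest on it. A 3' probe set of GAPDH, with a ratio of 1.86, read 6103 and 5648 on the ppi2 arrays against 3767 and 7010 on the wild type arrays. Only 2 of the 12 met the ratio limit. One was a 3' probe set of actin, with 4252 and 4263 on the ppi2 arrays against 4314 and 4459 on the wild type arrays. The other was a second 3' probe set of GAPDH, with 3510 and 3448 on the ppi2 arrays against 3201 and 3919 on the wild type arrays. The part of array quality in the ribosomal values was not tested.

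**Figure D2:**
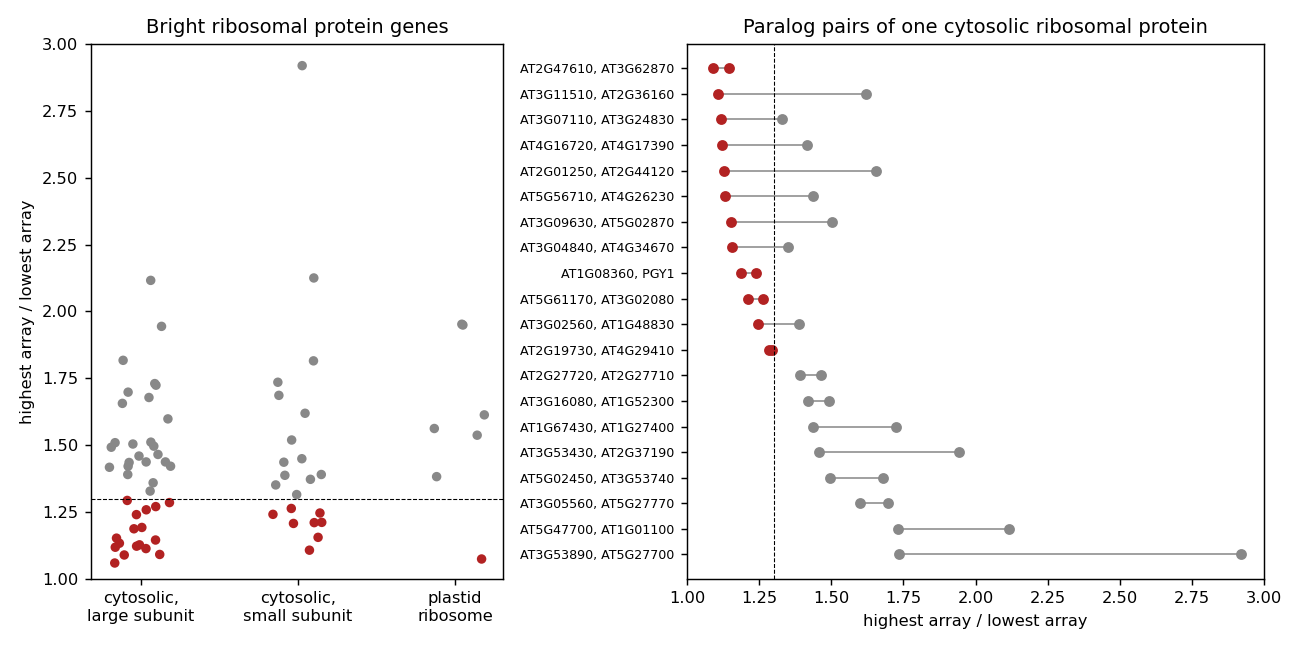
Left, evenness ratio (highest over lowest array) of bright probe sets for cytosolic and plastid ribosomal proteins, with members in red, others in grey and the limit of 1.3 dashed (horizontal scatter is only for visibility). Right, the same ratio for 20 pairs of genes that encode the same cytosolic ribosomal protein, each pair joined by a line; in 8 pairs only 1 gene is a member, in 4 both are and in 8 neither is.

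Some paralogs for the same ribosomal protein lay on both sides of the limit. Among 20 pairs with both genes bright, 4 pairs held 2 members, 8 held 1 and 8 held 0. Of all 64 bright cytosolic ribosomal genes, 39.1% were members. Whether pairs split more or less often than this share would give was not tested. AT3G11510, a small-subunit protein, read 5861 and 5989 on the ppi2 arrays against 5410 and 5510 on the wild type arrays, a ratio of 1.11. Its paralog AT2G36160 read 5950 and 5298 against 3676 and 5581, a ratio of 1.62. AT2G01250, of the large subunit, read 7723 and 7408 on the ppi2 arrays against 6853 and 7291 on the wild type arrays. Its paralog AT2G44120 read 4034 and 4339 against 3474 and 5754. Both members of the pair AT2G47610 and AT3G62870 were even, with ratios of 1.09 and 1.15. Near-identical paralogs can share probes, and the files do not say how far each probe set separates them.

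Among 7 bright probe sets for plastid ribosomal proteins from nuclear genes, 1 was a member on the signals as deposited. After quantile normalization 3 of the 7 were even, and 2 were after median centring, without ppi2 replicate 2 or without wild type replicate 1. The member was AT5G47190, with 3184 and 3133 on the ppi2 arrays against 3021 and 2965 on the wild type arrays. The other 6 had ratios from 1.38 to 1.95, and 5 of the 6 were lower on the ppi2 array in replicate number 1 and higher on it in replicate number 2. AT1G29070, the least even, read 4585 and 8159 on the ppi2 arrays against 8948 and 5021 on the wild type arrays.

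The plastid group held 3 further members. AT3G08740, an elongation factor P of the plastid, read 4939 and 4320 on the ppi2 arrays against 4808 and 5045 on the wild type arrays. HEMB1 (AT1G69740), which makes porphobilinogen on the way to chlorophyll and heme, read 3172 and 3384 on the ppi2 arrays against 3716 and 3042 on the wild type arrays. AT2G23070, a plastid-located alpha subunit of casein kinase 2, read 3799 and 3558 on the ppi2 arrays against 3573 and 4376 on the wild type arrays. The labelled groups overlapped in these 3 genes. PORB, a bright enzyme later in the same pathway as HEMB1, read 2894 and 19755 on the ppi2 arrays against 26437 and 2516 on the wild type arrays, a ratio of 10.5.

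Protein turnover and folding was represented by 5 probe sets. AT4G16190, a papain-type cysteine protease, read 13973 and 11249 on the ppi2 arrays against 12955 and 12567 on the wild type arrays. GAMMA-VPE (AT4G32940), a vacuolar protease that matures other vacuolar proteins, read 6164 and 6359 on the ppi2 arrays against 5988 and 5708 on the wild type arrays. Both ppi2 values were the higher ones, at a log2 difference of 0.10 (limma SE 0.261).

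MPPBETA (AT3G02090), a subunit of the peptidase that removes mitochondrial targeting sequences, read 4153 and 3494 on the ppi2 arrays against 3688 and 4034 on the wild type arrays. AT5G20890, a subunit of the CCT chaperonin that folds actin and tubulin, read 4112 and 3875 on the ppi2 arrays against 4145 and 3921 on the wild type arrays, with a ratio of 1.07. AT1G26550, a peptidyl-prolyl isomerase, read 3984 and 3344 against 4110 and 3732. The last 2 were lower on the ppi2 array within both replicate numbers. MPPBETA lies next to AT3G02080, the small-subunit gene above, in the RefSeq gene order of chromosome 3, and this was the only adjacent pair among the 94 members placed on the genome.

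Of 16 fixed genes of ubiquitin and its conjugation, 2 were measured by a probe set of their own, both for conjugating enzymes, and 0 of these 2 were members. The ubiquitin genes on the list had no probe set of their own in the annotation used. UBC28, a ubiquitin-conjugating enzyme, was bright but read 4563 and 10569 on the ppi2 arrays against 11656 and 4242 on the wild type arrays, a ratio of 2.75. PEX4, also known as a reference gene, was below the signal limit with 1263 and 988.1 on the ppi2 arrays against 965.5 and 1118 on the wild type arrays.

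The cytoskeleton was represented by 1 named member, WLIM2b (AT3G55770), a LIM-domain protein that bundles actin filaments. It read 6667 and 6787 on the ppi2 arrays against 6756 and 6660 on the wild type arrays. Its ratio of 1.02 was the lowest of all 249 members, and its labelled log2 difference was 0.004 (limma SE 0.259). Of 15 fixed tubulin genes, 7 had a probe set of their own and 0 were members, although 1 member is assigned to several genes, of which at least 1 is on the list. TUA6, an alpha-tubulin, was bright with 6692 and 7846 on the ppi2 arrays against 8415 and 5345 on the wild type arrays, a ratio of 1.57. TUB6, a beta-tubulin and reference gene, fell just short of the signal limit with 2686 and 3029 on the ppi2 arrays against 2649 and 2837 on the wild type arrays, a ratio of 1.14. TUA1 was the least even tubulin, with 822.9 and 523 on the ppi2 arrays against 305.2 and 948.4 on the wild type arrays. Of 8 actins 2 were measured, both below the signal limit, and ACT11 read 338.4 and 346.2 on the ppi2 arrays against 237.5 and 246.1 on the wild type arrays.

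Primary metabolism held 12 members, 7 for enzymes of carbon and related metabolism, 4 for the respiratory chain and 1 for a proton pump. GAPC2 (AT1G13440), the cytosolic GAPDH of glycolysis, read 14225 and 16610 on the ppi2 arrays against 15916 and 13598 on the wild type arrays. cICDH (AT1G65930), which makes NADPH and oxoglutarate in the cytosol, read 9292 and 9803 on the ppi2 arrays against 10456 and 8376 on the wild type arrays. In both genes ppi2 replicate 2 and wild type replicate 1 were the higher pair. TPI, another glycolytic enzyme, lay just outside the limit with 10349 and 8906 on the ppi2 arrays against 7857 and 10285 on the wild type arrays, a ratio of 1.32.

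Of the respiratory chain, AT4G37830, a subunit of cytochrome c oxidase, read 6605 and 7476 on the ppi2 arrays against 7077 and 7174 on the wild type arrays. AT3G08610, a subunit of complex I, read 4658 and 5771 on the ppi2 arrays against 5627 and 4935 on the wild type arrays. AT4G32470, of the cytochrome bc complex, read 3702 and 4519 on the ppi2 arrays against 4603 and 4374 on the wild type arrays. These 3 were lower on the ppi2 array in replicate number 1 and higher on it in replicate number 2. AT5G47030, a subunit of the mitochondrial ATP synthase and the least even metabolic member, ran the other way with 3742 and 2935 against 2995 and 3422, a ratio of 1.27.

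ALDH7B4 (AT1G54100), an aldehyde dehydrogenase, was the most even metabolic gene, with 4097 and 4256 on the ppi2 arrays against 3958 and 4124 on the wild type arrays. AT5G51970, a sorbitol dehydrogenase, read 4374 and 4134 on the ppi2 arrays against 4501 and 4515 on the wild type arrays, so that both ppi2 values were the lower ones. Over the 12 probe sets the median labelled log2 difference was 0.004, with 6 above 0 and 6 below.

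Genes named for stress or other roles made up 11 members. In the crossed order lay 77.2% of their sum of squares, against 55.4% over all members and 84% over all tested probe sets. The 4 members of the respiratory chain reached 76.9%, so a high share was not particular to this group. Of the 11, 7 were higher on the ppi2 array in replicate number 1 and lower on it in replicate number 2, with group medians of 0.19 and -0.14. STZ (AT1G27730), a zinc finger repressor induced by salt and cold, read 10054 and 7769 on the ppi2 arrays against 7996 and 9496 on the wild type arrays. TET8 (AT2G23810), a tetraspanin of the plasma membrane, read 9159 and 7218 against 7781 and 9370, with a ratio of 1.298 the least even of the group. LCR69 (AT2G02100), a plant defensin, read 9590 and 9426 on the ppi2 arrays against 7995 and 9289 on the wild type arrays.

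DI19 (AT1G56280), a drought-induced zinc finger protein, read 6175 and 7407 on the ppi2 arrays against 6311 and 6437 on the wild type arrays. SKU5 (AT4G12420), a cell-surface protein of directional root growth, read 5304 and 4951 on the ppi2 arrays against 4554 and 5415 on the wild type arrays. RBP45B (AT1G11650), an RNA-binding protein, read 4855 and 3942 against 4687 and 4808. RD2 (AT2G21620), named for its response to desiccation, was the most even of the group with 3895 and 3728 on the ppi2 arrays against 3775 and 3670 on the wild type arrays.

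The 34 genes without a function group had evenness ratios from 1.02 to 1.29. AT1G78040 read 18454 and 19092 on the ppi2 arrays against 19252 and 18089 on the wild type arrays, and AT5G32450 read 3931 and 3950 against 4027 and 3948. Over all 249 members, AT5G32450 was among the 5 with the smallest sum of squared log2 deviations, together with WLIM2b and 3 unnamed probe sets. The 16 members assigned to several genes had ratios from 1.05 to 1.27 and are not named. The 138 unnamed members had a median ratio of 1.205, against 1.199 over all members.

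Of 21 genes fixed as customary RT-PCR references, 11 had a probe set of their own. GAPC2 was the only member among these 11, and the only one of them to reach the signal limit. A further member is assigned to several genes, of which at least 1 is on this list, and the same holds for 1 member and the list of translation factors. In all, 3 of the 11 met the ratio limit, GAPC2, TUB6 and AT2G28390, the last with 708.5 and 688.7 on the ppi2 arrays against 666.6 and 817.4 on the wild type arrays. The median evenness ratio of the 11 was 1.39. AT5G46630, a clathrin adaptor subunit on the list, read 999.9 and 1713 on the ppi2 arrays against 1875 and 1084 on the wild type arrays, again in crossed order. The translation factor EIF4A-2 was bright but outside the limit, with 4156 and 2788 on the ppi2 arrays against 3551 and 4072 on the wild type arrays.

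**Figure D3:**
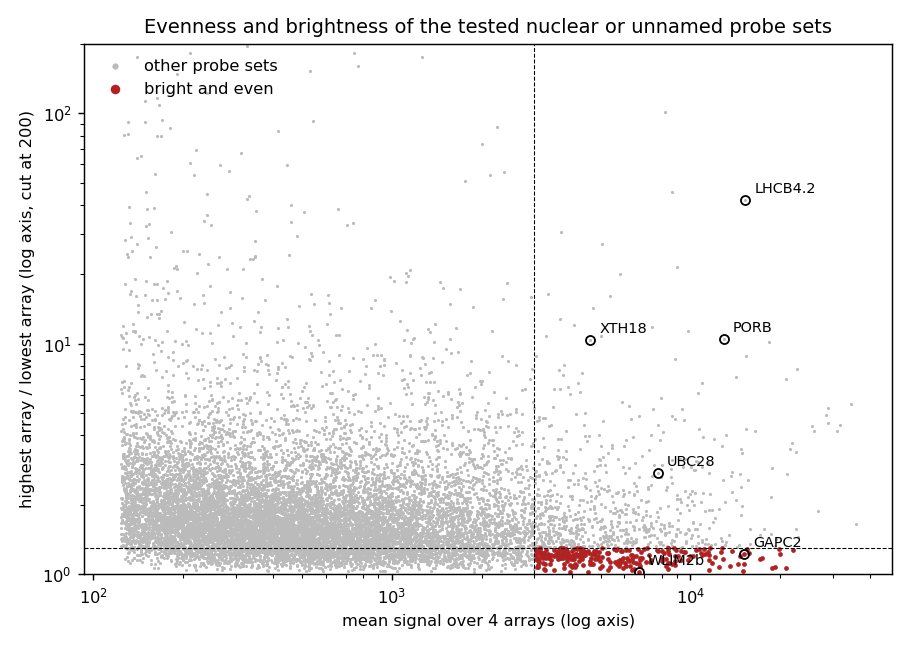
Evenness ratio against mean signal for the tested probe sets outside the organelle genomes, both on log axes, with the limits of 3000 and 1.3 dashed and members in red. WLIM2b and GAPC2 lie inside both limits, while UBC28, PORB, XTH18 and LHCB4.2 lie inside the signal limit only; 15 probe sets with a ratio over 200 lie above the axis.

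The share of even probe sets rose most at low signals and less from 500 upward, with no marked step at the signal limit. The share of probe sets with an evenness ratio of at most 1.3 was 11.8% at mean signals from 124 to 500, 20.9% from 500 to 1000 and 23.2% from 1000 to 3000. It was 26.5% from 3000 to 6000, 25.1% from 6000 to 12000 and 27.2% of the 81 probe sets at 12000 and over. Strongly uneven probe sets, with a ratio over 2, made up 26.7%, 29.3% and 44.4% of the last 3 classes. LHCB4.2, an antenna protein, was an example, with 840.5 and 29459 on the ppi2 arrays against 30097 and 714.2 on the wild type arrays.

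**Figure D4:**
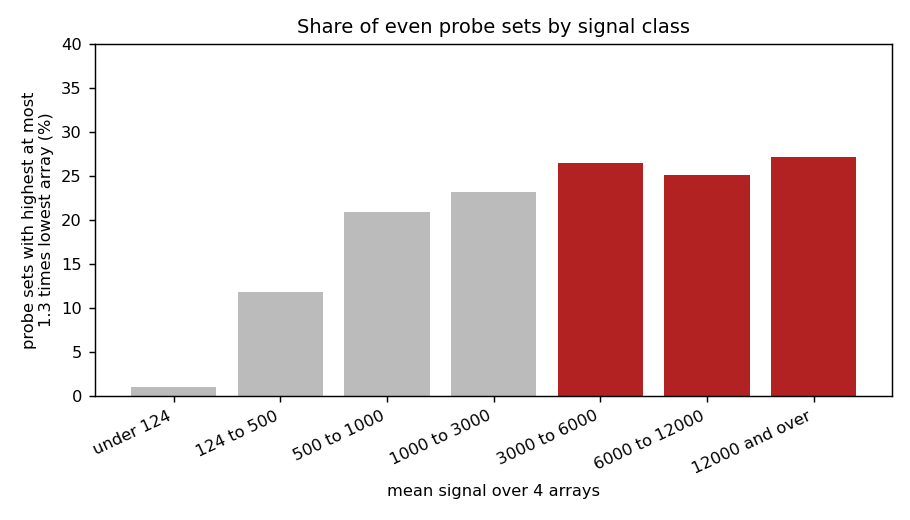
Share of probe sets outside the organelle genomes whose highest array was at most 1.3 times the lowest, by class of mean signal; red bars are classes at or above the signal limit. The bars at 3000 and over lie between 25.1% and 27.2%.

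Within the limits, 37 members had an evenness ratio of at most 1.1, 89 one over 1.1 and up to 1.2, and 123 one over 1.2. Just inside the ratio limit lay 262117_at at 1.2993, with 14170 and 12170 on the ppi2 arrays against 10906 and 13556 on the wild type arrays, and just outside it 262985_s_at, whose unrounded ratio exceeded the limit, with 11461 and 12095 against 9303 and 11680. Just inside the signal limit lay AT5G28060 with a mean of 3039, and just outside it AT1G02305 with 2999. The values showed no gap at either limit.

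Between the labelled groups, 0 of 13648 probe sets passed an adjusted p of 0.05 in the limma fit (0% called), and 8 had an unadjusted p under 0.05. None of the 249 members was among either. Since the choice of members caps their differences, this says nothing about them. Their median labelled log2 difference was 0.02, with a range from -0.18 to 0.32, against -0.01 and -2.00 to 1.77 over all tested probe sets. Both ppi2 arrays lay above both wild type arrays for 40 of the 249 members, where 6.13% of all tested probe sets did. They lay below for 16 of the 249, where 8.13% of all tested probe sets did. The largest such difference belonged to the unnamed probe set 253221_at, with 5552 and 5688 on the ppi2 arrays against 4378 and 4650 on the wild type arrays. Because the rule also caps the spread within each label, these counts follow in part from the choice and are no result about the members.

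**Figure D5:**
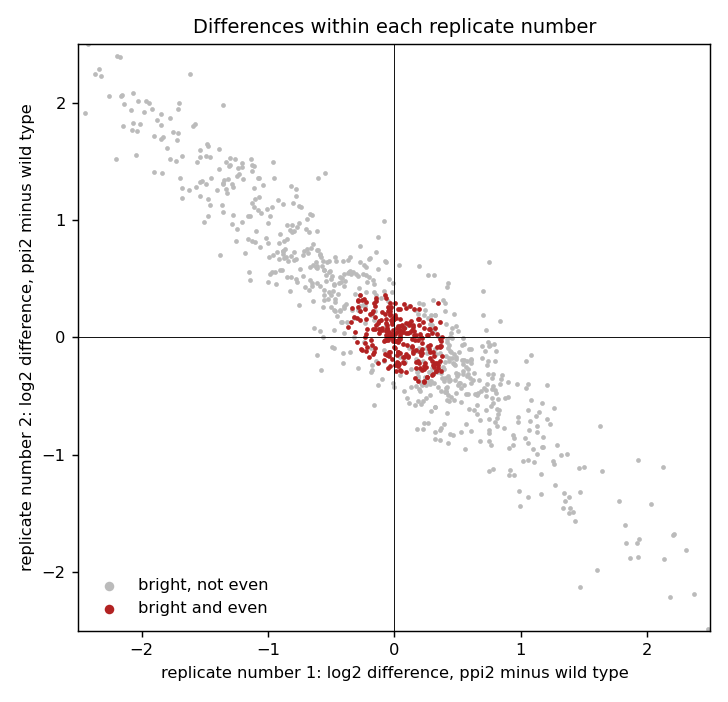
Log2 difference of ppi2 minus wild type in replicate number 2 (y axis) against that in replicate number 1 (x axis) for members (red) and other bright probe sets (grey). Members lie within 0.38 of 0 on both axes, as the ratio limit requires. The other bright probe sets spread along the falling diagonal, with 38 of them beyond the axes.

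The crossed order of the arrays was still the main direction of variation among the members. In log2 signals, setting ppi2 replicate 1 together with wild type replicate 2 accounted for 55.4% of the members' sum of squares around their own means, against 21.7% for the labels and 22.9% for the replicate numbers. Over all tested probe sets these shares were 84%, 7.5% and 8.51%, and over the 704 bright probe sets that were not even 95.5%, 1.81% and 2.68%. Differences of the 2 replicate numbers had opposite signs in 65.1% of members, against 91.1% of the other bright probe sets and 77.9% of all tested ones. The ratio limit caps the members' spread, and the 704 were set apart by exceeding it. These contrasts between the sets therefore follow in part from the choice. Ppi2 replicate 1 was the highest array for 83 members, ppi2 replicate 2 for 62, wild type replicate 1 for 63 and wild type replicate 2 for 41. Wild type replicate 1 was most often the lowest, for 78 members.

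The 94 members with 1 gene in the RefSeq gene table lay on all 5 nuclear chromosomes, with 27.7% on chromosome 3, where 20.6% of the 13217 named nuclear genes lie, and 20.2% on chromosome 1, where 25.8% lie. Their genes had a median length of 1992 bp, against 1788 bp for bright genes that were not even and 2111 bp for all named nuclear genes. The 28 translation genes had a median of 1665 bp and the other 66 members one of 2106 bp. Every gene among the 94 had only 1 probe set assigned to it alone, so no second one of that kind could be set beside a member. Control probe sets and those assigned to several genes were not searched for the members' genes.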

How the data were processed

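RNA of 4 samples was measured on single-colour Affymetrix arrays. The deposited values were linear signal intensities, 1 per probe set, which the authors made with MAS5 per the submitters' processing notes. Its version, like the level to which arrays were scaled, is not given in the sources used here. No further scaling was applied. Of 22810 probe sets, 64 controls were kept apart. Genes came from a platform annotation and, by gene identifier (for 35 mitochondrial or plastid probe sets with older identifiers, by symbol), a RefSeq table of assembly TAIR10.1 (names, chromosomes, lengths and gene order only). Group and replicate number came from the sample titles.

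For the labelled comparison, log2(signal + 7.99), the 10th percentile of all signals as pseudocount, was fitted with limma 3.58.1 in R 4.3.3 on the label alone. The eBayes step used a trend with mean signal, and two-sided p-values were adjusted by Benjamini-Hochberg over the 13648 probe sets with a mean of at least 124, the 40th percentile. All probe sets of a gene were kept. The p-values rest on the spread among these 4 arrays and the number of arrays limits the precision. The fit was tested on simulated signals with independent noise and without the crossed order of the arrays. That test therefore does not show what the fit can find in these arrays. Same-numbered arrays deviated in opposite directions (correlation -0.817), and the main fit did not pair arrays by number. An exchange of labels in 1 replicate number could also turn this correlation negative. It therefore cannot show whether same-numbered arrays belong together.

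The members, gene lists and comparisons were chosen with earlier results of these data known. Named genes were, per function group, the 6 with the highest mean signal, the most even and the least even, probe sets next to each limit and, per fixed list, the brightest and least even outside; others are examples picked by value. The remaining lists are described above. A planned search of promoters was not run, as no sequence was used here. Plots came from matplotlib 3.10.9 under Python 3.11.15.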

Additional observations from a re-analysis of the deposited data

How the results depend on the processing

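The count of 0 probe sets between the labelled groups was the same with quantile normalization, median centring, other pseudocounts and filters, no trend, 1 probe set per gene, a replicate block (0, and 0 at an unadjusted p under 0.05) and without each array in turn (0 to 0; the lone array left in a group is then assumed to vary like the other group). With crossed replicate numbers as a block, chosen after the data were seen, it was 1, a probe set outside the members, at an adjusted p of 0.0455, with 560 at an unadjusted p under 0.05. The number of even bright probe sets was 126 with a ratio limit of 1.2 (13.2% of bright ones) and 445 with 1.5 (46.7%), 400 with a signal limit of 2000 and 120 with 5000. Quantile normalization gave 210 (21.9%), of which 168 were among the 249, and median centring 230, of which 194 were. Over 3 arrays the count ranged from 292 to 392 and the share from 30.4% to 41.1%, highest without wild type replicate 1, and 244 to 247 of the 249 were kept. Leaving out an array can only lower a ratio or keep it, so a member was lost only by a mean signal under the limit. The number kept and the rise of the counts over 3 arrays, the ribosomal one included, therefore follow largely from the rule. The ribosomal count of 25 became 16 after quantile normalization and ranged from 28 to 49 over 3 arrays. The members' median labelled difference ranged from 0.01 to 0.032 without 1 array and was -0.01 after quantile normalization and 0.083 after median centring, which moved the median of all tested probe sets to 0.0528. Of 488 values of the 61 grouped genes under the alternatives, 86 had the other sign and 20 moved by over 1 SD. The 488 include a replicate block, which leaves a difference unchanged by design, and a pseudocount of 1, which hardly alters bright signals. The share with the other sign is therefore higher over the remaining settings. Leaving out 1 array of a label shifts a difference by at most this SD within the labels, so those values could not count as moved. Most of the 488 were thus unable to move, and the count of 20 is low in part by design. The causes were not tested. Without detection calls, what dim probe sets show is limited.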
